A study of Mus musculus with 6 samples.

Results

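The BCL2 family decides whether a cell opens its mitochondrial outer membrane and dies by apoptosis. The genes described here are 10 of its regulators, chosen by gene symbol and divided by role into pro-survival members (Bcl2, Bcl2l1 and Mcl1), effectors (Bax and Bak1) and BH3-only members (Bcl2l11, Bbc3, Pmaip1, Bid and Bmf). All 10 were among the 21671 named genes of the count table, and all 10 passed the filter on low counts that left 14809 genes for testing. Total RNA depleted of ribosomal RNA was sequenced from tumours of CD1 nude ho mice that had been injected with transformed hepatoblasts, the progenitor cells of hepatocytes and bile duct cells. Per the labels' protocols the injected cells carried TtRMPVIR shST18, a conditional vector whose hairpin RNA against St18 is made in the presence of doxycycline. St18 encodes a zinc finger transcription factor. The untreated group has 3 libraries, with the genotype label wild type. The doxycycline group has 3 libraries, labelled ST18 knockdown, from animals killed 4 h after oral gavage with 300 µl of 200 mg/ml doxycycline. No label gives the age of the animals or a doxycycline group without the hairpin, so effects of the drug, the gavage and the hairpin cannot be told apart. Nothing says outright that each library is a separate animal. The p-values may thus reflect no more than the variation among libraries, which may be technical.

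Pro-survival proteins hold the effectors in check. BH3-only proteins are the stress sensors: they bind the pro-survival proteins or the effectors directly, and once freed, BAX and BAK assemble in the outer membrane and let cytochrome c out, which starts the caspase cascade. Many BH3-only genes are controlled at the level of transcription, and in liver epithelium MCL1 and BCL-XL (the product of Bcl2l1) are the best known guardians of survival. MCL1 and several BH3-only proteins turn over within a short time, so an RNA level says nothing here about the protein.

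Counts of St18, the targeted gene, did not fall under the ST18 knockdown label: they were 12, 23 and 19 in the untreated libraries, in the order of replicates 1, 2 and 3 that is used throughout, and 34, 12 and 61 after doxycycline (log2 fold change 1.03, edgeR adjusted p = 0.298). Without doxycycline replicate 2, St18 was called higher (1.45, edgeR adjusted p = 0.0386). That fit called 2110 genes, against 744 with all libraries, and was the only 1 of 14 alternatives in which St18 passed. Libraries held 12090309 to 16169043 counts. The hepatoblast and epithelial markers described here were mixed. Krt8, Krt18 and Sox9 had 339 to 1433, 722 to 1162 and 382 to 504 counts per library, Dlk1 71 to 215, Epcam 53 to 89, Krt19 20 to 463 and Cdh1 3 to 130, while Afp had 6 to 20, Hnf4a 0 to 16 and Alb 0 to 2. None of the 8 tested passed. Markers of other cells are given by the number called in edgeR, against 2.84% of all tested genes called higher and 2.18% lower, and by their summed level in CPM (counts scaled to library size). Of 15 skeletal muscle markers 10 were higher (Myh4, Myh2, Pvalb, Neb, Myl1, Tnnc2, Ckm, Mylpf, Tnnt3 and Actn3), with sums of 82.5 to 228 CPM in untreated and 438 to 3012 CPM in doxycycline libraries. Of 12 fibroblast and mural markers 3 were higher (Lum, Dcn and Postn), with sums of 1302 to 1347 and 1713 to 1984 CPM, and Pdgfrb was at -0.19. Of 9 macrophage markers 3 were higher (Mrc1, Cd163 and Emr1), with sums of 349 to 413 and 484 to 641 CPM, and Cd68 was at -0.30. Of 7 endothelial markers 2 were higher (Tek and Cdh5), with sums of 307 to 324 and 328 to 416 CPM, and Eng was at -0.27. Of 7 neutrophil markers 1 was lower (Csf3r), with sums of 99.3 to 159 and 41.8 to 77.3 CPM. No marker found in the table was at 0 in all libraries. The part of these differences in the values below was not tested, and in bulk tissue fewer cells of a type and less RNA per cell cannot be told apart.

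Bcl2 was the only member past the threshold, and it was higher after doxycycline. Of the 10 members, 1 was higher and 0 were lower at an edgeR adjusted p under 0.05, against 2.84% of all tested genes called higher and 2.18% called lower (5.02% in either direction). At an unadjusted p under 0.05 there were 2 higher (Bcl2 and Bmf) and 1 lower (Bbc3), against a background of 23.9% in either direction. The groups did not overlap for 5 members, Bcl2 being higher and Bcl2l1, Bax, Bbc3 and Bid lower, while 29.6% of all tested genes showed no overlap. The median log2 fold change of the members was -0.10, with 7 of 10 values below 0, and the median over all tested genes was 0.01. By role, the medians were -0.09 for the pro-survival members, -0.16 for the effectors and -0.17 for the BH3-only members.

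**Figure D1:**
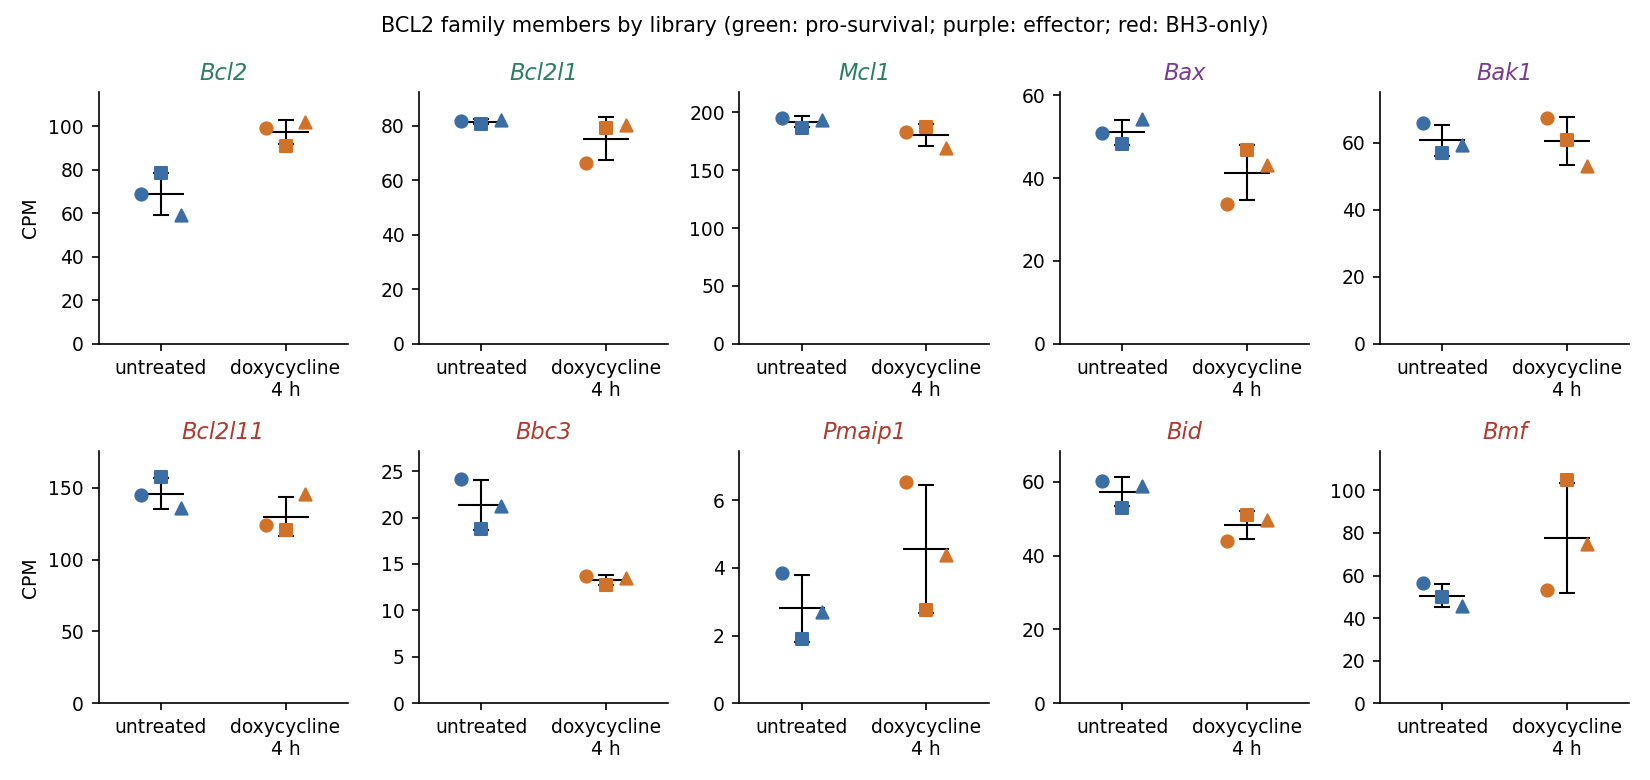
Normalised level (CPM, linear axes from 0) of each of the 10 members in every library, with replicates 1, 2 and 3 as circle, square and triangle, and mean and SD as bar and whiskers. Bcl2 lies between 59.0 and 78.5 CPM in untreated and between 91.1 and 102 CPM in doxycycline libraries, and Bbc3 lies between 18.7 and 24.1 and between 12.7 and 13.7 CPM.

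Among the pro-survival members, Bcl2 encodes the founding member of the family, which sits on the outer mitochondrial and endoplasmic reticulum membranes. It measured 68.9, 78.5 and 59.0 CPM without and 99.4, 91.1 and 102 CPM with doxycycline. Every doxycycline library lay above every untreated library. The means were 68.8 ± 9.73 and 97.4 ± 5.57 CPM (SD, n = 3 each), a 1.42-fold difference (95% interval 1.18 to 1.71; log2 fold change 0.50, SE 0.12, edgeR quasi-likelihood test, adjusted p = 0.0485). This call is close to the threshold. It was lost without each of untreated replicates 1, 2 and 3 (edgeR adjusted p = 0.183, 0.083 and 0.218). It was also lost without doxycycline replicates 1 and 3 (0.089 and 0.128). Over all genes these fits called 23, 52, 27, 416 and 289, against 744 with all libraries. With doxycycline replicate 2 left out, Bcl2 differed by 0.54 on the log2 scale (edgeR adjusted p = 0.016), and 2110 genes were called.

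Mcl1 and Bcl2l1 did not pass the test. Mcl1, which encodes a short-lived guardian that binds BIM, PUMA and NOXA (the products of Bcl2l11, Bbc3 and Pmaip1), measured 195, 187 and 194 CPM in untreated and 183, 187 and 169 CPM in doxycycline libraries. Its groups overlapped, and the 95% interval of its log2 fold change ran from -0.25 to 0.07 around -0.09 (edgeR adjusted p = 0.468). Bcl2l1 measured 81.7, 80.5 and 82.1 CPM in untreated libraries and 66.1, 79.1 and 80.3 CPM in doxycycline libraries. The untreated values were tightly grouped, and doxycycline replicate 1 alone lay far below them. The log2 fold change was -0.11 (95% interval -0.34 to 0.11, edgeR adjusted p = 0.533).

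Neither effector passed. Bax, whose product moves from the cytosol to mitochondria when activated, measured 50.8, 48.1 and 54.2 CPM in untreated and 33.8, 46.7 and 43.2 CPM in doxycycline libraries. All 3 doxycycline values lay below the untreated ones, replicate 1 by the widest margin (log2 fold change -0.31, 95% interval -0.63 to 0.01, edgeR adjusted p = 0.228). Bak1, whose product resides in the outer membrane, measured 65.9, 57.0 and 59.3 CPM and 67.4, 60.9 and 53.2 CPM. These groups overlapped fully (log2 fold change -0.01, 95% interval -0.28 to 0.26, edgeR adjusted p = 0.983), and the sign of the small Bak1 difference turned positive in 3 of 14 alternative fits.

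The BH3-only members went different ways, and none passed the test over all genes. Bbc3 encodes PUMA, a p53-induced protein that binds all the pro-survival proteins. It measured 24.1, 18.7 and 21.2 CPM in untreated and 13.7, 12.7 and 13.5 CPM in doxycycline libraries. The doxycycline values were tightly grouped below all untreated values, with means of 21.4 ± 2.69 and 13.3 ± 0.521 CPM (SD, n = 3 each). On the log2 scale Bbc3 differed by -0.68 (SE 0.18, 95% interval -1.09 to -0.27, edgeR adjusted p = 0.0667). DESeq2 called Bbc3 lower (adjusted p = 0.00742), as did edgeR without doxycycline replicate 2 (-0.65, adjusted p = 0.045). Over all genes these fits called 1669 and 2110, against 744 in edgeR with all libraries.

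Bmf encodes a BH3-only protein held on the myosin V motor complex. It measured 56.4, 49.8 and 45.5 CPM in untreated and 53.3, 105 and 74.7 CPM in doxycycline libraries. Doxycycline replicate 2 was the highest and doxycycline replicate 1 lay inside the untreated range. The mean went with a wide spread, from 50.6 ± 5.46 to 77.5 ± 25.8 CPM (SD, n = 3 each; log2 fold change 0.62, SE 0.22, 95% interval 0.12 to 1.12, edgeR adjusted p = 0.137). Without doxycycline replicate 2 the log2 fold change of Bmf was 0.34, and without doxycycline replicate 1 it was 0.83 (edgeR adjusted p = 0.166 and 0.0504).

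Bcl2l11, Bid and Pmaip1 did not pass either. Bcl2l11 encodes BIM, a BH3-only protein that cells raise on growth factor loss. It measured 145, 158 and 136 CPM in untreated and 124, 121 and 146 CPM in doxycycline libraries, and doxycycline replicate 3 lay within the untreated range (log2 fold change -0.17, 95% interval -0.39 to 0.06, edgeR adjusted p = 0.341). Bid, whose product is cut by caspase-8 and so links death receptors to mitochondria, measured 60.3, 52.8 and 58.7 CPM and 44.1, 51.1 and 49.7 CPM. Those groups did not overlap, by a margin of 51.1 against 52.8 CPM at the closest (log2 fold change -0.25, 95% interval -0.50 to 0.01, edgeR adjusted p = 0.22). Pmaip1, which encodes NOXA, the partner of MCL1, was the scarcest member, with 51, 30 and 40 counts in untreated and 78, 40 and 70 counts in doxycycline libraries. Its levels were 3.85, 1.88 and 2.70 CPM and 6.53, 2.75 and 4.39 CPM, which overlap, and the 95% interval of its log2 fold change was the widest of the members, from -0.26 to 1.65 around 0.69 (edgeR adjusted p = 0.355).

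**Figure D2:**
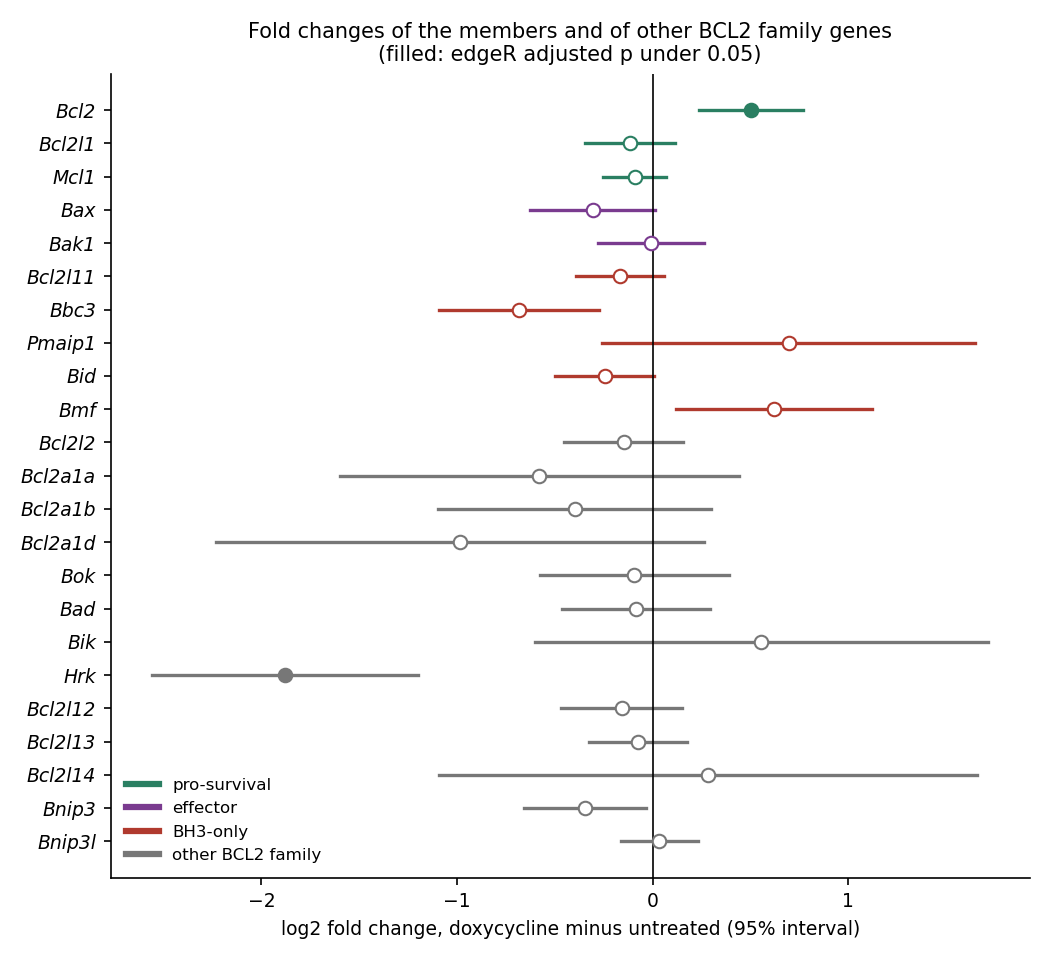
Log2 fold change (doxycycline minus untreated, horizontal axis) with its 95% interval for the 10 members and the 13 other BCL2 family genes tested, coloured by role, with filled points where the edgeR adjusted p was under 0.05. Bcl2 at 0.50 and Hrk at -1.88 are the filled points.

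The largest difference within the wider family was that of Hrk, a BH3-only gene outside the 10. Hrk encodes harakiri, which binds BCL2 and BCL-XL. It measured 10.9, 10.1 and 13.4 CPM in untreated and 2.85, 4.12 and 2.38 CPM in doxycycline libraries. The highest doxycycline value was well below the lowest untreated value, and Hrk fell by 1.88 on the log2 scale (SE 0.30, 95% interval -2.56 to -1.20, edgeR adjusted p = 0.017), which corresponds to a level 3.67-fold lower. The call was lost without each of untreated replicates 1, 2 and 3 (edgeR adjusted p = 0.0994, 0.069 and 0.114), with log2 fold changes of -1.92, -1.98 and -1.75. In those fits most calls over all genes were lost too, with 23, 52 and 27 left of 744. Of 16 other family genes, 13 were tested, with a median of -0.15. Among these 1 was lower and 0 higher, against 2.18% and 2.84% of all tested genes. Next by p stood Bnip3, a hypoxia-induced mitophagy receptor (-0.35, edgeR adjusted p = 0.168), and Bcl2a1d (-0.98, adjusted p = 0.318). Bcl2a1d is 1 of several nearly identical copies among which reads may have been split. Bcl2l10, Bcl2a1c and Bcl2l15 had too few counts to test.

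The promoters of Bcl2 and Hrk, the family genes that passed the test in opposite directions, are shown for comparison as the 250 bases before the annotated start in RefSeq (GRCm38.p6), 5′ to 3′ on the gene's strand. The deposited counts used another build, mm9, and the genes were matched by symbol. Capitals mark a match to any of 4 motifs searched on both strands: AAAGTTT, the core bound by the MYT family to which ST18 belongs, TGATGNAA, the composite element of C/EBP and ATF factors such as ATF4 and CHOP, GTAAACA, bound by FOXO factors, and CACGTG, the E-box bound by MYC.
Bcl2, chr1:106714291-106714540, minus strand: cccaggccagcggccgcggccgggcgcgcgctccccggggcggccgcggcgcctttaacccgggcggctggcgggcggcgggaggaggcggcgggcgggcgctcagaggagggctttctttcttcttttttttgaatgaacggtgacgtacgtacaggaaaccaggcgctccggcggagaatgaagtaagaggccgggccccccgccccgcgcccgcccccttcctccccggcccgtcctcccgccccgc
Hrk, chr5:118169514-118169763, plus strand: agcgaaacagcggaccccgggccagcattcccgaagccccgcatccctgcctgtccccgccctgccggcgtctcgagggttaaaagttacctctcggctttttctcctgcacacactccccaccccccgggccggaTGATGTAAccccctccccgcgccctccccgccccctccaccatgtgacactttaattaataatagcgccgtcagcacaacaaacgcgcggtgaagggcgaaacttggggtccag
The Hrk window holds TGATGTAA, a match to TGATGNAA, with its first base at -114 from the start, and the Bcl2 window holds no match to any of the 4. Over 32536 distinct windows of the same length, 4.23% hold AAAGTTT, 3.40% TGATGNAA, 3.17% GTAAACA and 6.04% CACGTG. Of the 10 members, 9 had a window among those searched, some with several starts. Among them AAAGTTT and TGATGNAA were in 0, GTAAACA in 2 (Bcl2l11 and Bbc3) and CACGTG in 2 (Bax and Bbc3). A member was counted if any of its windows held a match. The percentages are per window, so they cannot be set against these counts of genes. In no window did matches overlap. These matches describe letters in short windows only. Windows on part of the genome were left out of the search of family genes, and no window of Pmaip1 was among those searched.

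Per kilobase of exon, which corrects for gene length when genes are compared, Mcl1 was the most abundant member and Pmaip1 the scarcest in both groups. Counts may not scale alike in all genes. The median count ratio of untreated replicate 2 to replicate 1 was 1.24 at 0.05 to 0.1 counts per base. It was 1.14 at 0.5 to 1 counts per base. In untreated libraries Mcl1 had 0.82 counts per base and Bcl2 0.11. The effect on levels, sums and ratios between genes was not tested. In untreated libraries the order was Mcl1 (56.1 ± 1.33 CPM per kb, SD, n = 3), Bax (32.4 ± 1.94), Bak1 (25.2 ± 1.91), Bcl2l11 (18.2 ± 1.36), Bcl2l1 (17.8 ± 0.177), Bid (16.1 ± 1.11), Bbc3 (10.1 ± 1.27), Bmf (9.63 ± 1.04), Bcl2 (7.51 ± 1.06) and Pmaip1 (1.03 ± 0.362). Bcl2l11 and Bcl2l1, and Bbc3 and Bmf, overlapped, and the other neighbours in this order did not. After doxycycline Bmf stood at rank 6 with 14.8 ± 4.91 CPM per kb, Bcl2 at rank 8 with 10.6 ± 0.609 and Bbc3 at rank 9 with 6.26 ± 0.245, and Bcl2 and Bbc3 did not overlap. In that group Bax and Bak1, Bcl2l1 and Bcl2l11, Bcl2l11 and Bmf, and Bmf and Bid overlapped. With the longest transcript in place of all exons, the first and last places and those of Bax, Bbc3, Bmf and Bcl2 in untreated libraries were the same, while Bcl2l1 moved from rank 5 to 3 (31.7 CPM per kb) and Bak1 from rank 3 to 5 (25.5 CPM per kb).

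**Figure D3:**
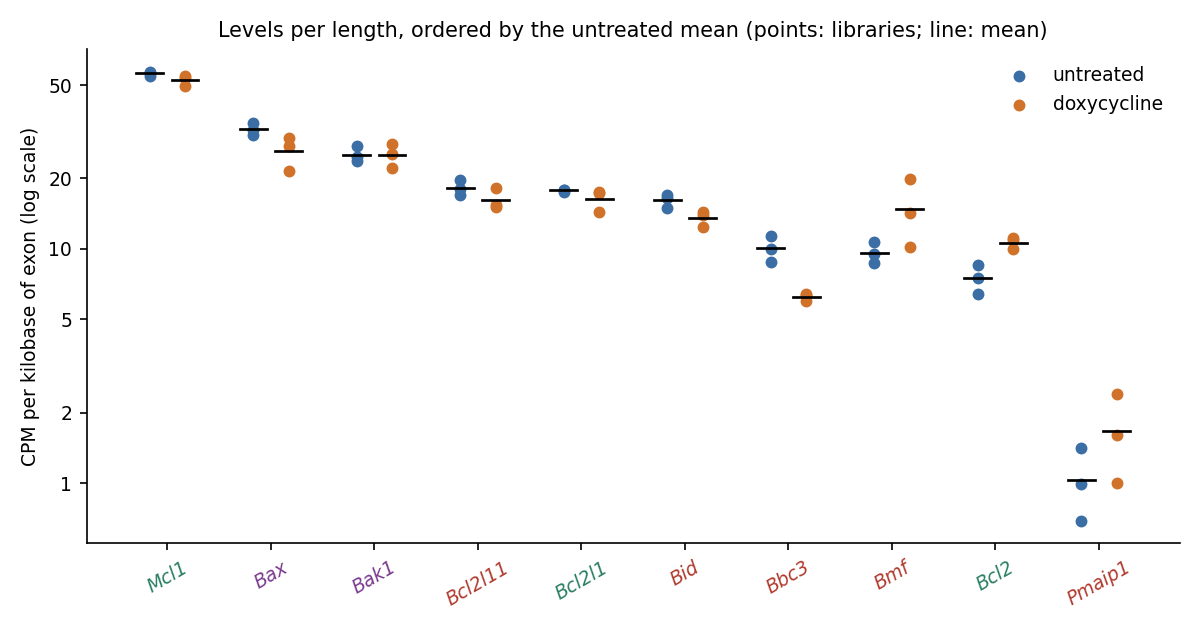
CPM per kilobase of exon (log axis) for each member, ordered by the untreated mean, with 1 point per library and a line at the group mean. Mcl1 lies near 56.1 and 52.6, Bcl2 goes from 7.51 to 10.6 and Bbc3 from 10.1 to 6.26.

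Summed by role, the per-length levels moved little. The pro-survival sum was 81.4 ± 0.926 CPM per kb in untreated and 79.7 ± 2.07 in doxycycline libraries (SD, n = 3 each), since Mcl1 makes up most of it. The effector sum was 57.6 ± 2.97 and 51.3 ± 3.14, and the BH3-only sum 55.0 ± 3.02 and 52.5 ± 5.01. Pro-survival transcripts made up 41.9% ± 0.87 of the 10-member total in untreated and 43.5% ± 1.37 in doxycycline libraries. These sums are descriptions and carry no test.

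Ratios between single members were also formed within each library. The ratio of Bcl2 to Bax (CPM per kb) was 0.233, 0.281 and 0.187 in untreated and 0.506, 0.336 and 0.406 in doxycycline libraries. The ratio of Bcl2 to Bcl2l11 was 0.417, 0.436 and 0.381 and then 0.703, 0.662 and 0.613. Both ratios were higher in every doxycycline library than in any untreated library. Among BH3-only genes, the ratio of Bmf to Bbc3 was 0.946, 1.08 and 0.866 in untreated and 1.58, 3.33 and 2.23 in doxycycline libraries, so Bmf stood near Bbc3 in the first group and above it in the second. The ratio of Bcl2 to Bbc3 went from 0.76 ± 0.184 to 1.70 ± 0.0404. Bax to Bak1 overlapped between the groups, at 1.18, 1.29 and 1.40 against 0.766, 1.17 and 1.24. These ratios were formed after the fold changes were known and are descriptions without a test. Most divide a member with a positive log2 fold change by a member with a negative one, so their shifts follow from the choice of pairs.

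**Figure D4:**
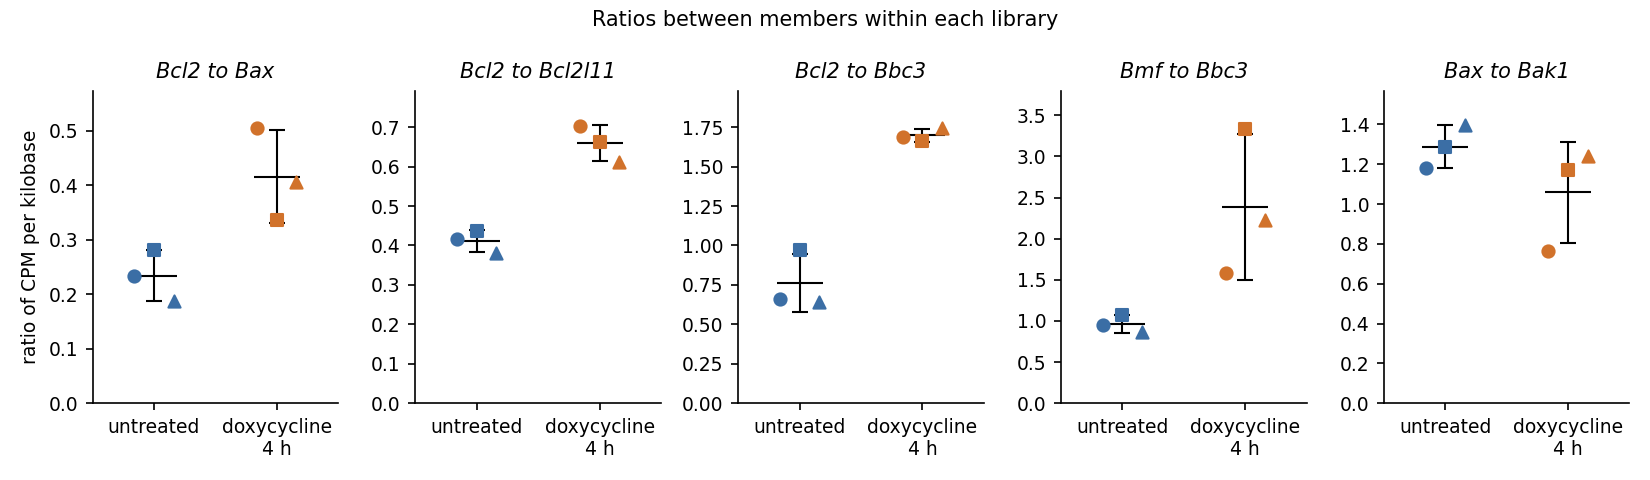
Ratio of CPM per kilobase between pairs of members in each library (linear axes from 0), with replicates 1, 2 and 3 as circle, square and triangle, and mean and SD as bar and whiskers. Bcl2 to Bbc3 lies between 0.644 and 0.972 in untreated and between 1.67 and 1.74 in doxycycline libraries, while Bax to Bak1 overlaps.

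Base composition moved with direction in these libraries. Genes called higher had a median GC content of 46.0%, genes called lower 54.5%, and all tested genes 49.8%. Among the members, Bbc3 (65.2%) and Bax (63.5%) had the highest GC content and were at -0.68 and -0.31, and Pmaip1 (42.1%) and Bcl2 (46.3%) had the lowest and were at 0.69 and 0.50, while Bmf (53.7%) was at 0.62. With offsets for GC content and length, an alternative chosen after seeing the data, Bax moved to -0.07, Bbc3 to -0.42 (edgeR adjusted p = 0.204), Bcl2 to 0.45 (adjusted p = 0.053), Bmf to 0.75 (adjusted p = 0.146) and Hrk to -1.80 (adjusted p = 0.0297). Doxycycline replicate 1 had the lowest of all 6 levels for Bax, Bcl2l1 and Bid.

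Downstream of the family, most genes of the execution machinery did not pass. Of 13 apoptosome and caspase genes, 1 was higher and 0 lower (median 0.12), against 2.84% and 2.18% of all tested genes. The gene called higher was Casp6, an executioner caspase that cuts lamins, at 37.5, 33.5 and 38.3 CPM in untreated and 51.0, 55.3 and 52.0 CPM in doxycycline libraries. Its groups were well separated (log2 fold change 0.54, SE 0.11, edgeR adjusted p = 0.0343), and the call was lost without each of untreated replicates 1, 2 and 3 (adjusted p = 0.147, 0.147 and 0.153) and without doxycycline replicates 1 and 3 (0.0551 and 0.0854). Fadd, the adaptor of death receptors (-0.36, adjusted p = 0.177), and Apaf1, the scaffold of the apoptosome (0.28, adjusted p = 0.177), did not pass. Of 7 inhibitors of apoptosis and their antagonists none passed in either direction in edgeR. Against 23.9% of all tested genes, 0 of them had an unadjusted p under 0.05 (median 0.02). Nearest to it were the ubiquitin ligase gene Birc2 (0.23) and the mitochondrial protease gene Htra2 (-0.21).

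Partners at the mitochondrion and in protein turnover also did not pass. Of 8 outer membrane and release partners, 0 passed in edgeR at the adjusted threshold, against 5.02% of all tested genes (median -0.02). At an unadjusted p under 0.05 there were also 0, against 23.9%. Values ran from -0.20 for Endog, a mitochondrial nuclease, to 0.02 for Opa1, with the channel gene Vdac3 at -0.06. Of 11 genes for turnover and tethering of MCL1 and BH3-only proteins, 0 passed (median -0.02). At an unadjusted p under 0.05 there was 1, against 23.9% of all tested genes: Btrc, a ubiquitin ligase subunit (0.26, edgeR adjusted p = 0.177). Dynll2, the dynein light chain that tethers BMF, was at -0.35 (adjusted p = 0.24), with 56.4, 69.2 and 55.8 CPM in untreated and 54.7, 37.1 and 50.8 CPM in doxycycline libraries. Its lowest value, in doxycycline replicate 2, was in the library where Bmf was highest.

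Of 16 tested transcription factors and cofactors known to act on members, 2 were lower and 0 higher (median -0.27), against 2.18% of all tested genes called lower. These were Ddit3, which encodes CHOP, an activator of Bcl2l11 and Bbc3 and a repressor of Bcl2 in other settings, from 47.3 ± 3.06 to 23.2 ± 2.68 CPM (SD, n = 3 each; log2 fold change -1.03, edgeR adjusted p = 0.012), and the CHOP target and cofactor Trib3, from 111 ± 1.01 to 42.5 ± 12.1 CPM (-1.38, adjusted p = 0.0126). Jun (-0.80, adjusted p = 0.0795) and Atf4 (-0.28, adjusted p = 0.0799) did not pass. At an unadjusted edgeR p under 0.05, 9 of the 16 were lower and 0 higher, against 10.8% and 13.1% of all tested genes. The groups did not overlap for 10 of the 16, 9 lower and 1 higher, against 29.6% of all tested genes. The list was chosen with earlier results of these data known. Trp53, the activator of Bbc3, Pmaip1 and Bax, named here after its values were seen, measured 78.1, 76.0 and 75.0 CPM in untreated and 64.2, 56.8 and 67.0 CPM in doxycycline libraries (-0.29, adjusted p = 0.124). The number of these factors called lower was 0, 1 and 0 without untreated replicates 1, 2 and 3. It was 3 without doxycycline replicate 1 and likewise without replicate 2, and 6 with DESeq2. Over all tested genes the number called lower moved too, from 323 to 12, 25 and 13 without untreated replicates 1, 2 and 3. It was 236 and 866 without doxycycline replicates 1 and 2, and 782 with DESeq2.

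The 5 genes whose level followed Bcl2 most closely over the 6 libraries were Pde8b, Gstm2, Cplx2, Trim2 and Ccdc150, with Pearson correlations of log2 CPM from 0.993 to 0.996 among 12013 genes with a mean of at least 5 CPM. The libraries form separate groups, so these values largely restate the group difference, and 102 genes exceeded 0.95. Of the 5, Cplx2 passed the test between groups (log2 fold change 0.52, edgeR adjusted p = 0.0403).

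**Figure D5:**
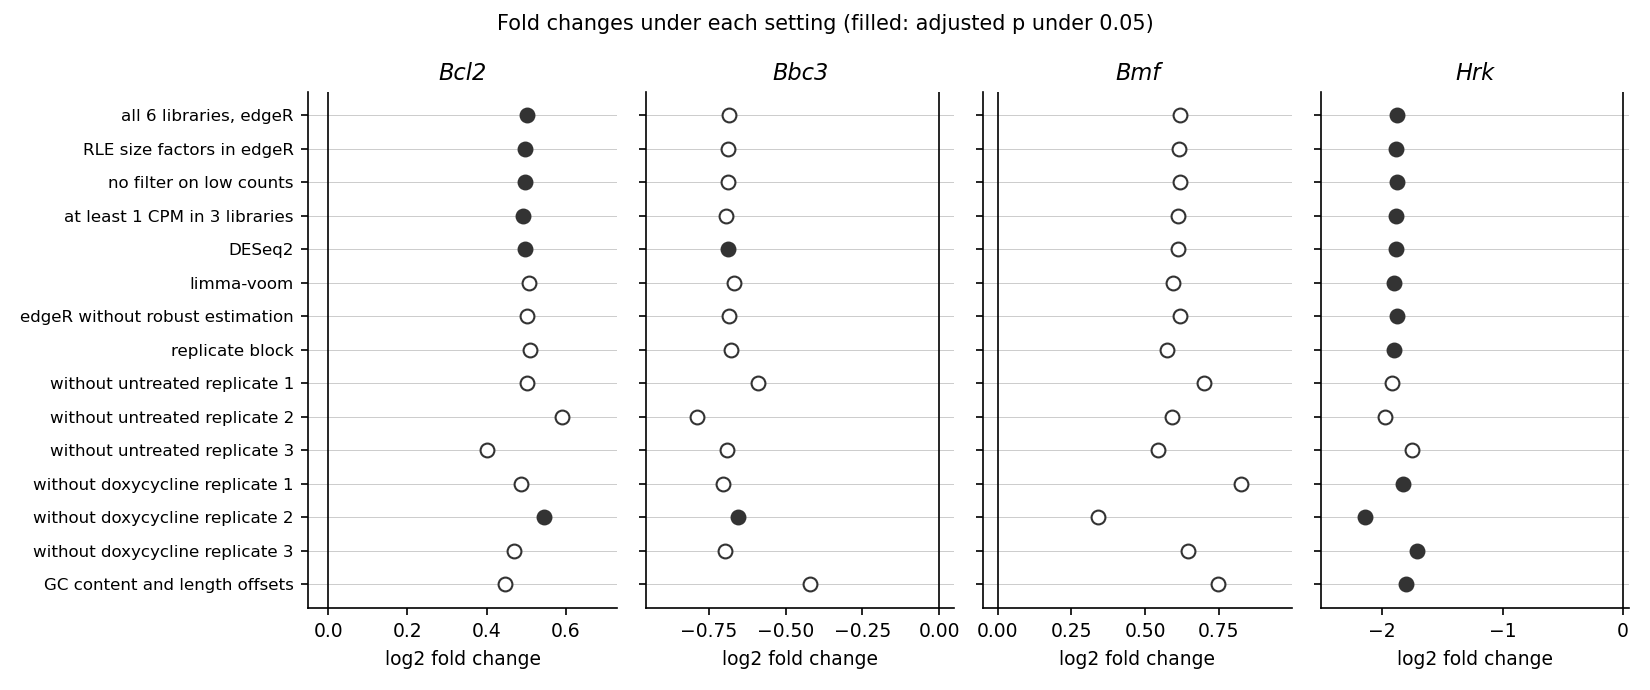
Log2 fold change of Bcl2, Bbc3, Bmf and Hrk (horizontal axes) under edgeR on all libraries and each of 14 alternative settings, filled where the adjusted p was under 0.05. Bcl2 lies between 0.40 and 0.59 and Hrk between -2.14 and -1.71, with 5 and 11 of the 14 alternatives past the threshold.

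The directions of Bcl2, Bbc3 and Bmf held in all 14 alternatives, and their calls did not. Bcl2 passed in 5, Bbc3 in 2 and Bmf in 0 (lowest adjusted p 0.0504). DESeq2 called Bcl2 higher (adjusted p = 0.00509) and left Bmf at 0.0578.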

How the data were processed

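The values are whole-number read counts for each gene, as deposited. The submitters' processing notes name TopHat2 2.0.8, TopHat, HTSeq and build mm9, without their roles. Libraries were made with the TruSeq RNA kit v2, per the labels' protocols, and strand use is not given in the sources used here, so reads of overlapping antisense genes cannot be told apart. Of 21761 rows, 90 carry no gene name (0.0361% to 0.0402% of counts) and were left out. Genes were filtered with filterByExpr and tested in R 4.3.3 with edgeR 4.0.16 (TMM, factors 0.985 to 1.02, robust quasi-likelihood test, two-sided, Benjamini-Hochberg over all tested genes, threshold 0.05). The SE was obtained from the F statistic as |log2 fold change| / √F. CPM values are scaled by TMM. Alternatives used DESeq2 1.42.0, limma 3.58.1, other filters and scalings, a replicate block and leaving out each library. The test was tried on simulated data. Of 99 genes given a log2 change of 0.5, 17 were called, and of 99 given a change of 1.0, 60 were called. Of 14443 unchanged genes, 9 were called. A gene that did not pass may thus still differ by such an amount. Exon lengths and GC content came from GENCODE M21 (another build, no coordinates used). Members and lists were chosen with earlier results of these data known. Named genes are all members, list genes past the threshold and the 2 next by p in each pathway list, and the 5 genes most like a called member. For marker lists the next by p were not named. The other hepatoblast and epithelial markers, Pdgfrb, Cd68, Eng, Opa1 and Trp53 were named after their values were seen. One listed marker is not reported here. Counts of same-group libraries differed beyond counting error (chi-square over its degrees of freedom 5.17 to 29.8), and each library was 1 sample.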

Additional observations from a re-analysis of the deposited data

How the results depend on the processing

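The count of members called depended on the fit. Of the 10 members, 1 was higher and 0 lower in edgeR on all libraries. The number higher was 0 with limma-voom, without robust estimation, with the replicate block and with GC content and length offsets, and the number lower was 1 with DESeq2. Leaving out 1 library gave 0 to 1 higher and 0 to 1 lower. Over all tested genes, 421 were higher and 323 lower. These numbers were 887 and 782 with DESeq2, 215 and 179 with the replicate block, 261 higher with limma-voom and 202 lower with GC content and length offsets. Leaving out 1 library gave 11 to 1244 higher and 12 to 866 lower. The lowest numbers came without an untreated library: 11, 27 and 14 higher and 12, 25 and 13 lower without replicates 1, 2 and 3. The direction reversed for 2 members whose differences were near 0: Bcl2l1 to 0.028 with the offsets, and Bak1 to 0.054 without untreated replicate 1, 0.079 without doxycycline replicate 3 and 0.15 with the offsets. Leaving out 1 library moved Bak1 between -0.092 and 0.079. The cause was not tested. No pairing by replicate number was seen, though 3 libraries a group cannot exclude it. Deviations from group means correlated at -0.01, -0.07 and 0.02 for numbers 1 to 3, and no library correlated best with its own number. With the replicate block the Casp6 call was also lost (0.54, edgeR adjusted p = 0.0954), and Hrk stayed past the threshold (-1.90, adjusted p = 0.0405). With 3 libraries a group and 30 to 78 counts of Pmaip1 in each, a change of the size seen for Bcl2 could not be resolved for Pmaip1.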
